A study of Mus musculus with 14 samples.

Results

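Neat1, Malat1, Pvt1, Gas5, Snhg1, Snhg5 and Dancr are 7 long noncoding RNAs that are linked to cell stress and growth, and they were taken by gene name from the 30503 genes of the deposited count table. Each name matched 1 Ensembl identifier, and all 7 passed the filter on low counts that left 17358 genes for testing. They were measured by bulk RNA-seq in 14 cultured clones of tdTomato+ skeletal cells from mouse femoral bone marrow, each library being a single clone. All mice carried Fgfr3-creER, a tamoxifen-dependent Cre under Fgfr3 regulatory sequence, and the reporter R26R(tdTomato/+), and all were pulsed with tamoxifen at postnatal day 21. The control clones had no floxed p53 allele and were isolated at postnatal day 23 (Fgfr3-WT, n = 5). The other mice were also Trp53 fl/fl, and their clones were isolated at postnatal day 28 (Fgfr3-p53 cKO P28, n = 5) or at 4 months (Fgfr3-p53 cKO P4M, n = 4). Recombination was thus limited to descendants of cells in which the driver was active at the pulse. By the labels, Fgfr3-WT and P28 clones were at passage 8 and P4M clones at passage 6 to 8, while the study's methods give passage 6 to 8 for the cKO clones of both ages. The comparisons ask how these RNAs differ after p53 loss and with the age at which the p53-deficient cells were isolated. Because all mice were pulsed at the same age, age at isolation cannot be told apart from the time since the pulse. All Fgfr3-WT libraries were submitted under 1 number and all cKO libraries under another, so that genotype and library submission cannot be told apart. Nor can genotype be told apart from the age at isolation in the comparisons with Fgfr3-WT. The study reports that control clones needed more time in culture to reach the same passage, and that fewer of them could be passaged that far. Genotype thus also cannot be told apart from time in culture or from survival of clones through the passages. The part of either in the results was not tested.

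Long noncoding RNAs of this group work in different places. Neat1 and Malat1 stay in the nucleus, where the long form of Neat1 is the scaffold of paraspeckles and Malat1 gathers in nuclear speckles next to splicing factors. Neat1 is induced by p53 and by many stresses. Pvt1 lies beside Myc, and its promoter and transcript have been linked to the control of that oncogene. Gas5, Snhg1, Snhg5 and Dancr are host genes: small nucleolar RNAs (snoRNAs), which guide chemical modification of ribosomal RNA, are cut from their introns, and the spliced remainder is short-lived where it is read by ribosomes and removed by nonsense-mediated decay. Gas5 was named for its build-up in growth-arrested cells, and Dancr for its role in holding back differentiation.

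The libraries held between 25688946 and 38958693 counts in the Fgfr3-WT clones, between 37606033 and 48648618 in the P28 clones and between 43757832 and 52857424 in the P4M clones. Trp53, the targeted gene, lay between 49.9 and 68.2 CPM (counts scaled to the library total, with TMM factors) in Fgfr3-WT clones, between 2.18 and 2.84 CPM in P28 clones and between 1.72 and 2.37 CPM in P4M clones, as the labels require. All 10 skeletal markers were detected, and in all cKO against Fgfr3-WT the osteoblast genes Col1a1 and Runx2 were called higher and Sox9 and Fgfr3 lower. The blood and endothelial levels that follow are CPM of the library total without TMM factors. Of 9 blood markers in the count table, 7, Ptprc and Itgam among them, stayed below 1 CPM in every clone, and the summed level of the 9, made up mostly of Cd68, was 3.97 to 50.4 CPM in Fgfr3-WT, 1.49 to 2.53 CPM in P28 and 1.25 to 5.78 CPM in P4M clones. Of 6 endothelial markers in the table, 4 stayed below 1 CPM in every clone, with Cdh5 at 0 throughout, and the summed level was 1.02 to 3.41, 0.771 to 6.08 and 7.22 to 247.7 CPM, the highest value coming from Vwf in 1 P4M clone. Cd68 was called lower and Kdr higher in all cKO against Fgfr3-WT. The part of these cells in the results was not tested. In each clone a lower level may be fewer expressing cells or less RNA per cell, and bulk libraries cannot tell these apart.

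Neat1 and Malat1, the pair of nuclear RNAs, were far lower in the p53-deficient clones, Gas5 was lower in the P28 clones, and Snhg1 and Snhg5 were higher in the P4M clones. Pvt1 and Dancr were not called by edgeR in any comparison of the fit to all 14 clones. Pvt1 was near the threshold and was called by DESeq2 in P28 against Fgfr3-WT (adjusted p = 0.0426) and between P4M and P28 (adjusted p = 0.0333). A gene was called at a false discovery rate of 0.05 by the quasi-likelihood test of edgeR, with Benjamini-Hochberg adjustment over all 17358 genes. In P28 against Fgfr3-WT, 3 of the 7 were called and all 3 were lower, where 38.9% of all tested genes were called, 19.2% higher and 19.7% lower; no member was called higher by edgeR or DESeq2 or had an unadjusted p under 0.05 in that direction. In P4M against Fgfr3-WT, 4 were called, 2 lower and 2 higher, against 45.9% of all genes, 23.6% lower and 22.3% higher. In P4M against P28, 4 were called, 3 higher and 1 lower, against 7.22% of all genes, 3.34% higher and 3.88% lower. With the mean of both cKO groups set against Fgfr3-WT, 5 were called, 3 lower and 2 higher, against 48.8% of all genes, 25.7% lower and 23.1% higher. CPM did not overlap between the groups for 3 members in P28 against Fgfr3-WT (24.5% of all genes), for 3 in the P4M group against the same controls (33.6%), for 3 when P4M was set against P28 (19.0%) and for 2 when all cKO clones were taken as 1 group (18.1%). The median log2 fold change of the 7 was -0.73, -0.08, 0.92 and -0.27 in these comparisons, and that of all tested genes was -0.02, -0.06, -0.01 and -0.05. Among the 1358 tested long noncoding genes, 30.3%, 39.9%, 7.66% and 41.4% were called. The comparisons with Fgfr3-WT share the same 5 control clones, and P4M against P28 shares the cKO clones with them.

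**Figure D1:**
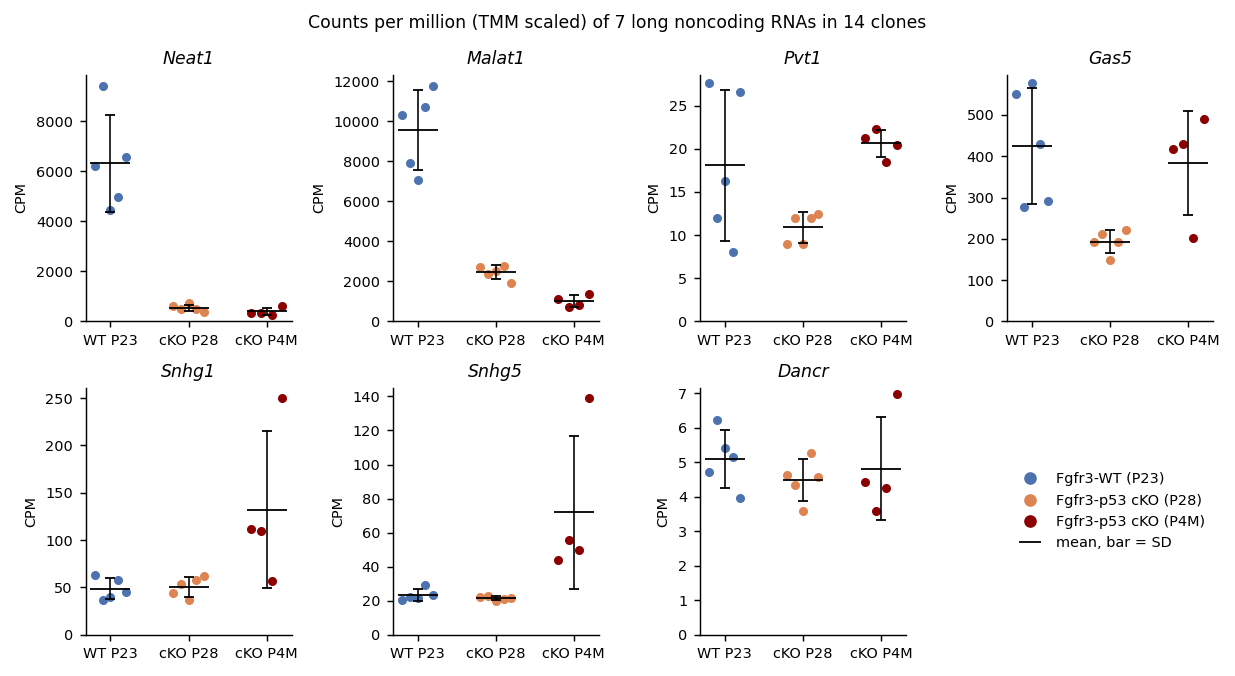
Level of each of the 7 long noncoding RNAs in CPM (y axis, linear from 0) in each clone, with points for single clones, the horizontal mark for the group mean and the bar for the SD (n = 5, 5 and 4). Neat1 and Malat1 are below every Fgfr3-WT clone in all 9 cKO clones, and P4M clone 4 has the highest Snhg1 and Snhg5.

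**Figure D2:**
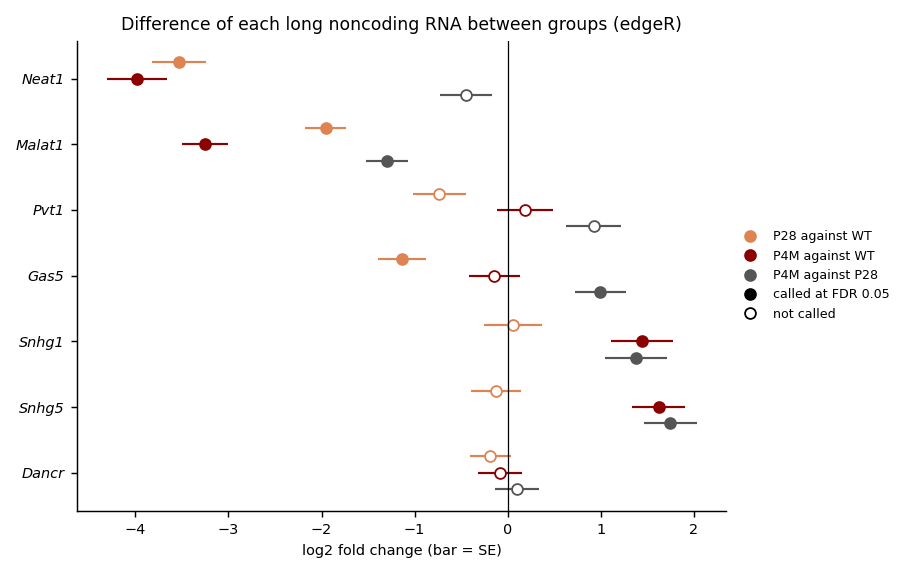
Log2 fold change with its SE (x axis) of each RNA in the P28 and the P4M clones, each against Fgfr3-WT, and between P4M and P28, with filled points for genes called at the false discovery rate of 0.05. The values run from -3.98 for Neat1 to 1.75 for Snhg5, and no point of Pvt1 or Dancr is filled.

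Neat1 (ENSMUSG00000092274, chr19:5824708-5845478 on the minus strand of mm10) was the member with the largest difference. Its level in the Fgfr3-WT clones 1 to 5 was 6199, 9408, 4451, 4981 and 6560 CPM. In the P28 clones 1 to 5 it was 612.1, 507.1, 721.6, 497.3 and 388.6 CPM, and in the P4M clones 1 to 4 it was 350.3, 354.3, 269.9 and 625.6 CPM. The lowest Fgfr3-WT clone was thus far above the highest cKO clone, and the cKO groups overlapped each other. Group means were 6320 ± 1930 CPM (SD, n = 5), 545.4 ± 126.4 CPM (SD, n = 5) and 400.0 ± 155.3 CPM (SD, n = 4). The log2 fold change was -3.53 (SE 0.290, edgeR adjusted p = 7.14e-06) in P28 and -3.98 (SE 0.325, edgeR adjusted p = 7.33e-06) in P4M against Fgfr3-WT, which is 11.6-fold and 15.8-fold lower. P4M and P28 did not differ beyond their spread (log2 fold change -0.45, SE 0.280, edgeR adjusted p = 0.334).

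Malat1 (ENSMUSG00000092341, chr19:5795690-5802672, minus strand), the neighbour of Neat1, stepped down over the groups. Its level in the Fgfr3-WT clones was 10310, 7915, 7076, 10728 and 11781 CPM. The P28 clones had 2715, 2368, 2531, 2785 and 1915 CPM and the P4M clones 1117, 705.4, 818.3 and 1370 CPM. No 2 of the 3 groups overlapped. The means were 9562 ± 1983, 2463 ± 347 and 1003 ± 300 CPM (SD, n = 5, 5 and 4). The log2 fold change was -1.96 (SE 0.217, edgeR adjusted p = 4.93e-05) in P28 and -3.25 (SE 0.250, edgeR adjusted p = 5.27e-06) in P4M against Fgfr3-WT. Malat1 was 2.46-fold lower in P4M than in P28 (log2 fold change -1.30, SE 0.229, edgeR adjusted p = 0.00895), and it was the member called lower in that comparison.

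A gene beside this pair was read from the annotation. Frmd8, the nearest tested protein-coding gene on the higher-coordinate side, starts 4224 bases from Neat1 and was also lower, with means of 88.9, 39.6 and 40.9 CPM in the 3 groups and a log2 fold change of -1.17 in P28 (SE 0.154, edgeR adjusted p = 0.000143) and -1.12 in P4M (SE 0.166, edgeR adjusted p = 0.000214) against Fgfr3-WT.

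Genes of chromosome 19 as a whole were shifted in some clones. The shift is the median over 366 genes of log2 CPM less the Fgfr3-WT mean and less the median of all autosomal genes of the clone. For an Fgfr3-WT clone, that mean was taken over the other Fgfr3-WT clones. It lay between -0.24 and 0.30 in Fgfr3-WT clones, between -0.33 and -0.13 in P28 clones and between -0.64 (clone 3) and 0.14 (clone 4) in P4M clones. The shift is a value for the whole chromosome and does not describe single regions of it. Its part in the levels of Neat1 and Malat1 was not tested. With the shift of each clone taken off, the mean log2 difference from Fgfr3-WT was -3.28 in P28 and -3.82 in P4M for Neat1, and -1.71 and -3.09 for Malat1.

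The counts do not separate transcript forms. Neat1 has 4 annotated transcripts of 711 to 20771 bases, and Malat1 has 4 of 485 to 6983 bases. Libraries were primed with oligo-dT, which favours polyadenylated RNA, and the long form of Neat1 lacks a poly(A) tail, so that its share was not measured here. How well this priming takes up Malat1, and whether it did so alike under both library submissions, was not tested. The deposited TPM (a level per transcript length) carries a length for each clone, which can be read back from the count and the TPM. For Malat1 this length fell from 6618 ± 597 bases (SD, n = 5) in Fgfr3-WT to 5585 ± 156 (SD, n = 5) in P28 and 4959 ± 309 (SD, n = 4) in P4M clones, with P4M below every other clone. For Neat1 it was 3461 ± 71.4, 4341 ± 416 and 3760 ± 85.4 bases, with every cKO clone above every Fgfr3-WT clone. The scale of each clone was the median over 468 genes with a single transcript, so these genes centre on their own length by construction. Their central 90% lay within 0.866 and 1.06 of the annotated length, corrected for read length, in every clone. Genes with a single transcript do not check the lengths of Neat1 and Malat1, which have several transcripts. On the TPM scale Malat1 was 2.70-fold lower in P28 and 6.77-fold lower in P4M than in Fgfr3-WT, where CPM gave 3.88-fold and 9.54-fold. For Neat1 the TPM folds were 11.8 and 16.2, where CPM gave 11.6 and 15.8. TPM also moved the median log2 fold change of all tested genes by 0.22 in P28 and by 0.11 in P4M against Fgfr3-WT, and the part of the length in the gap between the scales was not tested.

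**Figure D3:**
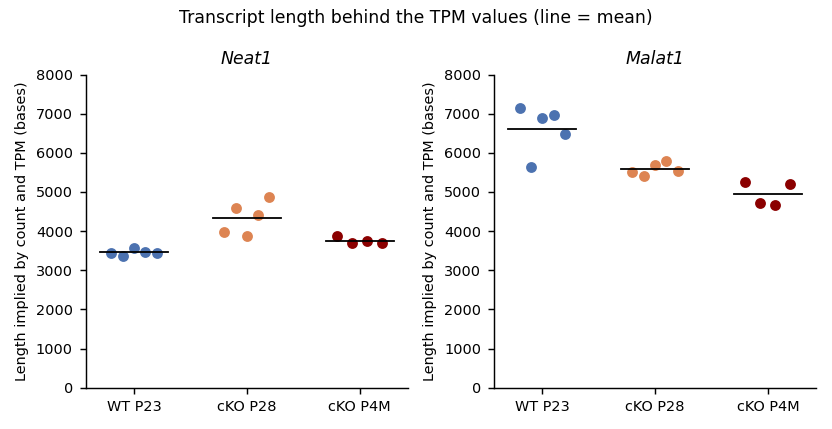
Transcript length in bases (y axis) implied by the deposited count and TPM of Neat1 and Malat1 in each clone, with the line at the group mean. The Malat1 values fall from a mean of 6618 bases in Fgfr3-WT to 4959 in P4M clones, and those of Neat1 stay between 3369 and 4860.

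Proteins of the bodies that these RNAs belong to were counted. Over all tested genes, 23.1% were called higher and 25.7% lower in all cKO against Fgfr3-WT. Of 17 paraspeckle proteins tested, 6 were called higher and 5 lower in all cKO against Fgfr3-WT, with a median log2 fold change of 0.20. Sfpq, an RNA-binding core protein of paraspeckles, rose (log2 fold change 0.75, SE 0.121), as did Nudt21, a cleavage factor subunit (0.69, SE 0.126). Hnrnph3 (-1.29, SE 0.222) and Rbmx (-1.15, SE 0.180), both RNA-binding proteins, fell. Of 18 nuclear speckle proteins, 5 were higher and 5 lower, with a median of 0.05. The splicing factor Srsf1 (0.69, SE 0.113) and the splicing coactivator Srrm1 (0.90, SE 0.171) rose, and the kinase Clk1 (-1.30, SE 0.177) and the splicing factor Srsf5 (-1.005, SE 0.157) fell. Of all tested genes, 7.22% were called in P4M against P28. In that comparison, edgeR called 0 of the 17 paraspeckle proteins, with 5 at an unadjusted p under 0.05 and 3 called by DESeq2, all lower. It called 0 of the 18 speckle proteins, with 0 at an unadjusted p under 0.05 and 0 called by DESeq2.

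Pvt1 (ENSMUSG00000097039, chr15:62037986-62378096, plus strand) varied most among the Fgfr3-WT clones. These had 27.6, 11.98, 16.3, 8.05 and 26.6 CPM. The P28 clones had 8.99, 11.95, 8.98, 12.03 and 12.5 CPM and the P4M clones 21.2, 22.3, 18.5 and 20.4 CPM. The Fgfr3-WT values spread over those of both cKO groups, while every P4M clone was above every P28 clone. Pvt1 had a log2 fold change of -0.73 in P28 (SE 0.286, edgeR adjusted p = 0.0566) and 0.19 in P4M (SE 0.301, edgeR adjusted p = 0.640) against Fgfr3-WT, and 0.92 between P4M and P28 (SE 0.301, edgeR adjusted p = 0.0756). The call turned on the setting: with only the groups compared, the edgeR adjusted p was 0.00653 between P4M and P28, and without Fgfr3-WT clone 4, the edgeR adjusted p was 0.00878 for P28 clones against the other Fgfr3-WT clones and 0.0332 for P4M against P28. That clone, the lowest for Pvt1, also had the lowest shift of chromosome 15, at -0.51 over 401 genes.

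Myc, which lies 47612 bases from Pvt1, rose in both cKO groups. Its mean was 18.3 ± 8.45 CPM in Fgfr3-WT, 65.4 ± 16.5 CPM in P28 and 134.7 ± 13.1 CPM in P4M clones (SD, n = 5, 5 and 4), with no overlap between groups. The log2 fold change was 1.83 in P28 (SE 0.284, edgeR adjusted p = 0.000389), 2.88 in P4M (SE 0.304, edgeR adjusted p = 2.71e-05) and 1.04 in P4M against P28 (SE 0.291, edgeR adjusted p = 0.0462). Against Fgfr3-WT, edgeR called Myc higher in both cKO groups and called Pvt1 in neither. In P4M against P28 both had a log2 fold change above 0, at 0.92 for Pvt1 and 1.04 for Myc. Their edgeR adjusted p values there, 0.0756 and 0.0462, lay on either side of the threshold. Whether the changes of Pvt1 and Myc differed from each other was not tested. Of 11 growth regulators tested, 8 were called higher and 0 lower by edgeR in all cKO against Fgfr3-WT, with 0 lower at an unadjusted p under 0.05 and 0 lower by DESeq2, and besides Myc the largest difference was that of its relative Mycl (log2 fold change 5.78, SE 1.003), whose mean in Fgfr3-WT was 0.0237 CPM. Of all tested genes, 23.1% were called higher and 25.7% lower in that comparison.

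The start regions of the snoRNA hosts are shown because 3 of the 4 were called higher in P4M than in P28 clones. RefSeq, on GRCm38.p6, gave regions of 250 bases before to 50 bases after the start for 5 of the 7 RNAs; Neat1 and Pvt1 are named only. Both strands were searched for the CCAAT box (the letters CCAAT), the TATA box (TATAAA), the cyclic AMP response element or CRE (TGACGTCA), the E-box that Myc binds (CACGTG) and the half-site of p53. Each sequence is read 5′ to 3′ on the gene's strand, with matches in capitals, and a match on the other strand appears as its reverse complement.
Gas5, second start, chr1:161034916-161035215 (+): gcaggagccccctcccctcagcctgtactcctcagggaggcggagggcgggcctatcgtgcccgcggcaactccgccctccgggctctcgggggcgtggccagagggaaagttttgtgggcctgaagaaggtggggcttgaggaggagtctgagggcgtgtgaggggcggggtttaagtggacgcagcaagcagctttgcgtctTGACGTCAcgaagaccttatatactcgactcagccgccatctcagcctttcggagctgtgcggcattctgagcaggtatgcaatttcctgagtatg
Snhg1, chr19:8723237-8723536 (+): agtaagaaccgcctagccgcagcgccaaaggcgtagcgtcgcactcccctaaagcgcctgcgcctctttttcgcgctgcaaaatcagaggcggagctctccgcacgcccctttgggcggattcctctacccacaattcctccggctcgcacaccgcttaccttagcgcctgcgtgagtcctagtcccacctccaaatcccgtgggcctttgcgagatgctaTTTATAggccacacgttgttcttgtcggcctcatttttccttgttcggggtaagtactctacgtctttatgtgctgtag
Snhg5, chr9:88522848-88523147 (-): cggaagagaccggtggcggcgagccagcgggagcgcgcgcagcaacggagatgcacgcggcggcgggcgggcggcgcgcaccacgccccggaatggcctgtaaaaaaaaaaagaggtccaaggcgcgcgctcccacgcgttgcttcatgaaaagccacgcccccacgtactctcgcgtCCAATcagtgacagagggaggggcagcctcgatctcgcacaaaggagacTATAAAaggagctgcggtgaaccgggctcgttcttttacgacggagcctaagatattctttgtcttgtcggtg
Dancr, chr5:74092810-74093109 (+): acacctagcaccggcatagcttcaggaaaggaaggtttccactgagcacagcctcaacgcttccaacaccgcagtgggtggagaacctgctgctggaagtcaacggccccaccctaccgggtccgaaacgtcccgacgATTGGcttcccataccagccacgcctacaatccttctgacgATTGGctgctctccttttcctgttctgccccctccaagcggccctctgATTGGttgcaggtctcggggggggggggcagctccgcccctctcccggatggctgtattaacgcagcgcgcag

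The second Gas5 start had a CRE 46 bases before it, and 1.79% of all 32851 promoters in the table hold one. Snhg1 and Snhg5 each had a TATAAA match, on the reverse strand 29 bases and on the forward strand 23 bases before the start, which 13.6% of all promoters hold. Snhg5 had 1 CCAAT match and Dancr had 3, at 112, 71 and 23 bases before the start, and 37.4% of promoters hold at least 1. The first Gas5 start and the Malat1 start had no match. No E-box and no p53 half-site was found in the 6 regions, while 7.15% and 8.36% of all promoters hold them. A match describes letters and no measured binding, and the link of any match to the level of its RNA was not tested.

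Gas5 (ENSMUSG00000053332, chr1:161034422-161038539, plus strand) was lowest in the P28 clones. The Fgfr3-WT clones had 551.1, 278.0, 576.3, 429.1 and 290.4 CPM. The P28 clones had 193.0, 211.7, 148.2, 192.1 and 221.2 CPM, all below every Fgfr3-WT clone, and the P4M clones had 417.6, 428.9, 201.9 and 489.5 CPM. Clone 3 of P4M was thus inside the P28 range and the other P4M clones were inside the Fgfr3-WT range. The means were 425.0 ± 140.1, 193.2 ± 28.1 and 384.5 ± 125.7 CPM (SD, n = 5, 5 and 4). Gas5 was 2.20-fold lower in P28 than in Fgfr3-WT (log2 fold change -1.14, SE 0.261, edgeR adjusted p = 0.00424), and P4M did not differ from Fgfr3-WT beyond its spread (-0.14, SE 0.274, edgeR adjusted p = 0.695). In P4M against P28 it was 1.99-fold higher (0.99, SE 0.273, edgeR adjusted p = 0.0437). That call was lost without any of 8 clones in turn, Fgfr3-WT clone 4, P28 clones 1 to 4 and P4M clones 1, 2 and 4, with an edgeR adjusted p of up to 0.116. The mean of both cKO groups was lower than Fgfr3-WT (-0.64, SE 0.224, edgeR adjusted p = 0.0299), a call lost without Fgfr3-WT clone 1, 3 or 4 (edgeR adjusted p = 0.0681, 0.0917 and 0.0517). Zbtb37 overlaps Gas5 on the opposite strand, and without strand its reads and those of Gas5 cannot be told apart in the shared part. Its mean was 29.5, 23.5 and 16.3 CPM in the 3 groups.

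Snhg1 (ENSMUSG00000108414, chr19:8723475-8726443, plus strand) was higher in the P4M clones. The Fgfr3-WT clones had 63.1, 37.1, 40.4, 58.3 and 45.0 CPM and the P28 clones 43.6, 53.4, 36.8, 58.3 and 61.9 CPM. The P4M clones had 111.4, 110.1, 57.2 and 250.1 CPM, so that clone 3 lay within both other groups and clone 4 had the highest level of all clones. Against Fgfr3-WT, the log2 fold change was 0.06 in P28 (SE 0.314, edgeR adjusted p = 0.899) and 1.44 in P4M (SE 0.333, edgeR adjusted p = 0.00373), and 1.38 in P4M against P28 (SE 0.333, edgeR adjusted p = 0.0276). The last value was 0.87 with an edgeR adjusted p of 0.0783 without P4M clone 4, and the call was also lost without P28 clone 1 or 3 or P4M clone 1 or 2 (edgeR adjusted p = 0.0638, 0.0687, 0.0504 and 0.0511). P4M against Fgfr3-WT stayed called without clone 4, at 0.94 in place of 1.44. Clones 3 and 4 of P4M had the lowest and the highest chromosome 19 shift of their group. With the shift taken off, the log2 difference from the Fgfr3-WT mean was 0.90 to 2.24 in P4M clones and -0.39 to 0.48 in Fgfr3-WT clones, where it had been 0.26 to 2.39 and -0.46 to 0.50. Slc3a2, an amino acid transporter subunit 106 bases from Snhg1 and on the other strand, had means of 445.5, 287.6 and 482.8 CPM and was called lower in P28 (log2 fold change -0.63, SE 0.212, edgeR adjusted p = 0.0307). Wdr74, a ribosome assembly factor on its other side, was called higher in P4M than in Fgfr3-WT (0.80, SE 0.210, edgeR adjusted p = 0.00733).

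Snhg5 (ENSMUSG00000097195, chr9:88521050-88522929, minus strand) had overlapping levels in the Fgfr3-WT and P28 clones and was higher in every P4M clone. The Fgfr3-WT clones had 20.4, 22.3, 21.8, 29.5 and 23.1 CPM and the P28 clones 22.05, 22.9, 19.7, 21.1 and 21.6 CPM. The P4M clones had 44.1, 55.5, 49.6 and 139.1 CPM. P4M did not overlap either other group, and clone 4 stood apart from the other P4M clones. Snhg5 had a log2 fold change of -0.13 in P28 (SE 0.265, edgeR adjusted p = 0.735), 1.62 in P4M against Fgfr3-WT (SE 0.281, edgeR adjusted p = 0.000585) and 1.75 in P4M against P28 (SE 0.282, edgeR adjusted p = 0.00651). Without P4M clone 4 the values for P4M were 1.09 against Fgfr3-WT and 1.21 against P28, and both stayed called. The protein-coding genes beside it moved in opposite ways: Syncrip, an RNA-binding protein, was higher (0.86 in P28 and 1.10 in P4M) and Zfp949, a zinc finger gene, lower (-2.11 and -2.39) than in Fgfr3-WT, all 4 called.

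Dancr (ENSMUSG00000106943, chr5:74093060-74095406, plus strand) was the least abundant member. Its range was 3.96 to 6.24 CPM in Fgfr3-WT, 3.60 to 5.28 CPM in P28 and 3.60 to 6.97 CPM in P4M clones, and all groups overlapped. Dancr had a log2 fold change of -0.19 in P28 (95% interval -0.62 to 0.25) and -0.08 in P4M (95% interval -0.54 to 0.38) against Fgfr3-WT, and 0.10 between P4M and P28 (95% interval -0.36 to 0.56). A difference of the size seen for Snhg1 or Snhg5 in P4M lay outside these intervals. Usp46, a deubiquitinase on the lower-coordinate side, was called higher in both cKO groups (0.77 and 0.75).

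The snoRNAs themselves could not be followed. The annotation places 10 of them inside Gas5, 8 inside Snhg1, 2 inside Snhg5 and 1 inside Dancr, and none of the 21 has a row in the count table, so that the values above are those of the spliced or unspliced host RNA. Other host genes were compared on the same scale. Of all tested genes, 3.34% were called higher and 3.88% lower in P4M clones against P28 clones. Of 19 other host genes tested, 4 were called higher and 0 lower by edgeR in P4M clones against P28 clones, with 2 lower at an unadjusted p under 0.05 and 1 lower by DESeq2, and a median log2 fold change of 0.56 against -0.01 over all genes. These 4 were Snhg6 (1.57, SE 0.224), Zfas1 (1.55, SE 0.312), Snhg16 (1.46, SE 0.245) and Snhg12 (1.26, SE 0.300). All but Snhg16 stand outside the rule for named genes and were picked with their values in view. The clone that stood apart was often the highest here too: P4M clone 4 had the highest level of all clones for 6 of the 19, where it was the highest for 6.91% of all tested genes. In all cKO against Fgfr3-WT, 6 of the 19 were higher and 5 lower, with Snhg16 (1.44, SE 0.217) and Taf1d (1.18, SE 0.141) at the upper and Snhg14 (-1.74, SE 0.350) and Eif4a2 (-1.04, SE 0.157) at the lower end. In the same comparison 23.1% of all tested genes were called higher and 25.7% lower.

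**Figure D4:**
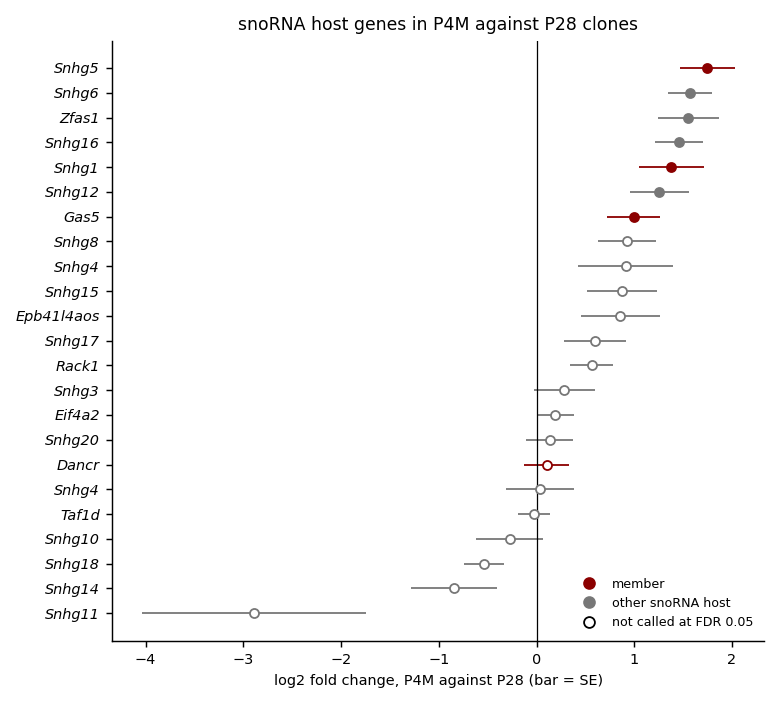
Log2 fold change with its SE in P4M against P28 (x axis) of 23 tested snoRNA host genes, the 4 members in red and the others in grey, with filled points for those called at the false discovery rate of 0.05. Snhg5, Snhg1 and Gas5 are among the 7 filled points, which are all above 0, and Dancr is near 0. Snhg4 appears under 2 Ensembl identifiers.

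Genes that act on the products of these hosts were also counted. The shares of all tested genes in all cKO against Fgfr3-WT were again 23.1% higher and 25.7% lower. Of 15 proteins of snoRNA particles tested, 7 were called higher and 1 lower in all cKO against Fgfr3-WT, with a median of 0.51. Nufip1, an assembly factor (1.02, SE 0.114), and Nop56, a core protein (1.01, SE 0.212), rose most, and Nop10 fell (-0.64, SE 0.178). Of 15 factors of nonsense-mediated decay, 7 were higher and 2 lower, with a median of 0.16. Smg5 (1.09, SE 0.184) and Magoh (0.76, SE 0.187) rose, and Upf3b (-1.59, SE 0.218) and the kinase Smg1 (-0.64, SE 0.164) fell. In P4M against P28, 7.22% of all tested genes were called. There edgeR called 1 of the snoRNA particle proteins, which was higher, with 6 higher and 0 lower at an unadjusted p under 0.05. DESeq2 called 4 of these proteins higher and 0 lower. Of the decay factors edgeR called 0, with 3 higher and 1 lower at an unadjusted p under 0.05 and 1 called by DESeq2.

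The order of the 7 RNAs by level per length changed between groups. By median TPM, Fgfr3-WT clones ran from Neat1 (2745) over Malat1 (2031) and Gas5 (1509) to Snhg1 (123.1), Snhg5 (42.1), Pvt1 (19.2) and Dancr (14.9). The ranges of Neat1 and Malat1, of Malat1 and Gas5, and of Pvt1 and Dancr overlapped. In P28 clones Gas5 (926.7) came first, followed by Malat1 (792.7) with an overlapping range, Neat1 (201.6) and Snhg1 (170.6) again with overlapping ranges, and then Snhg5 (48.2), Pvt1 (15.5) and Dancr (13.97). In P4M clones Gas5 (1827) stood apart above Snhg1 (379.4), and Malat1 (298.6) and Neat1 (141.4) followed with ranges that overlapped their neighbours. Snhg5 (104.5), Pvt1 (24.0) and Dancr (12.2) closed the order.

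**Figure D5:**
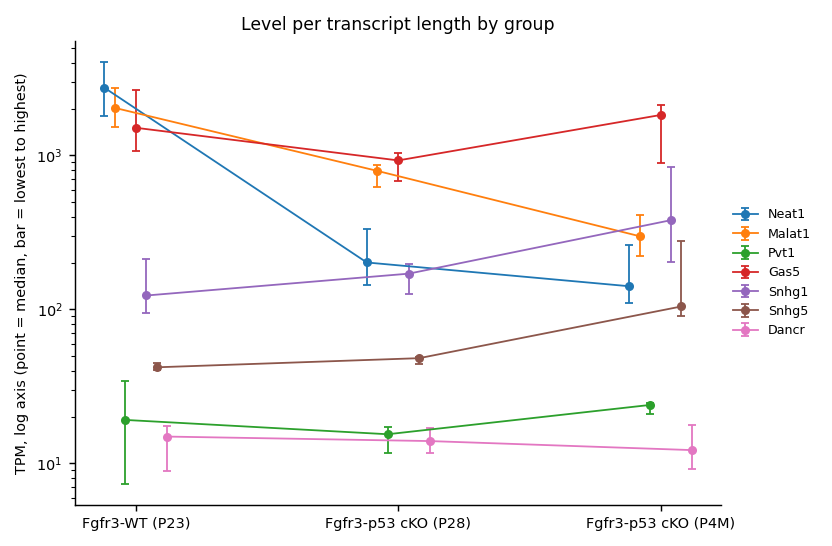
Median TPM of each of the 7 RNAs (y axis, log scale) in Fgfr3-WT, P28 and P4M clones (x axis), with bars from the lowest to the highest clone. Neat1 goes from the highest median in Fgfr3-WT (2745) to the fourth in P4M clones (141.4), and Gas5 is the highest in both cKO groups.

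Likeness within groups was described by Pearson's r of log2 CPM after the group means were taken out, over 14 clones and the 9660 genes whose log2 CPM averaged 3 or more. The points share libraries, depth and any shift of a whole chromosome. For Snhg1 the most alike genes were Ints5 (0.957), Rce1 (0.956) and Tut1 (0.945), all on chromosome 19, where Snhg1 lies. For Gas5 they were the host gene Snhg12 (0.906), Eif1ad (0.875) and Snd1 (0.868), and for Snhg5 they were Poll (0.877), Ighmbp2 (0.854) and Dmap1 (0.834). Neat1 was closest to Abcc10 (0.890), Lrp5 (0.849) and Eid1 (0.806). Malat1 was closest to Tgfb1i1 (0.851), Vegfb (0.813) and Ubtd1 (0.796). For Pvt1 these were Fitm2 (0.935), Mef2d (0.930) and Isy1 (0.923), and for Dancr Armc6 (0.797), Zdhhc4 (0.762) and Abhd11 (0.751). Of these 21 genes, 9 lie on chromosome 19, which holds 3.79% of the compared genes, and its shift differed between clones of 1 group, as given above. Among the members themselves, the highest values of r were those of Snhg1 with Snhg5 (0.732), Snhg1 with Gas5 (0.717) and Snhg5 with Dancr (0.651). By ranks of the same values (Spearman's rho) these pairs had 0.468, 0.600 and 0.525, in another order. P4M clone 4 had the highest level of all clones for Snhg1, Snhg5 and Dancr, and its weight in these values was not tested. Snhg1 had an r of 0.517 with both Malat1 and Dancr, and a rho of 0.389 and 0.275. By r, Neat1 with Malat1 (0.480) was no closer than Malat1 with Snhg5 (0.481) or Neat1 with Snhg5 (0.476). Their rho values were 0.398, 0.358 and 0.323.

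Of 22 other long noncoding RNAs tested from a list of known names, 2 were called higher and 8 lower in all cKO against Fgfr3-WT. Among all tested long noncoding genes, 41.4% were called in that comparison, and of all tested genes 23.1% higher and 25.7% lower. Crnde (0.9999, SE 0.221) and Miat were higher, Miat below 1 CPM in every clone. Meg3 and Rian, both maternally expressed from 1 imprinted region, were the lowest, with Meg3 at 489.9 ± 516.8 CPM in Fgfr3-WT, 70.0 ± 92.9 CPM in P28 and 0.0313 ± 0.0252 CPM in P4M clones (SD, n = 5, 5 and 4). Rian had 152.3 ± 144.0, 38.6 ± 51.2 and 0.0201 ± 0.0155 CPM. In P28 neither was called against Fgfr3-WT (edgeR adjusted p = 0.176 and 0.315). Genes of the p53 axis were checked beside these lists. Of these 9 genes, 8 were called lower in all cKO against Fgfr3-WT, led by Eda2r (-4.78, SE 0.572), where 25.7% of all tested genes were. The 8 include Trp53 (-4.59, SE 0.124), the targeted gene itself, whose fall follows from the design. Mdm2 fell by 2.12 in P28 and by 1.64 in P4M on the log2 scale. Cdkn1a, the cell cycle inhibitor, had a log2 fold change of -2.81 in P28 (SE 0.397, edgeR adjusted p = 0.000223) and of -0.54 in P4M (SE 0.397, edgeR adjusted p = 0.281).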

How the data were processed

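Cultured clones were profiled with SMART-Seq v4, which primes with oligo-dT and does not mark strand, and single-end sequencing. By the study's methods, reads were aligned to mm10 with TopHat and Bowtie2, and HTSeq was used on non-ambiguously mapped reads. Versions are not given in the sources used here. The deposited counts are whole numbers without normalization. The deposited expected counts equal them for all 30503 genes. Whether HTSeq made these counts, and how reads shared by several genes or transcripts were assigned, is thus not known here. The deposited TPM values were scaled by the authors per transcript length and library, and the program is not named. DESeq2 (used by the authors) made further tables, which were not used.

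Counts were tested in R 4.3.3 with edgeR 4.0.16: filterByExpr over the 3 groups, TMM, robust quasi-likelihood fit to all 14 clones, 4 contrasts, Benjamini-Hochberg adjustment over 17358 genes. CPM are TMM-scaled. log2 CPM used a prior count of 2. Steps were tested on simulated data. Alternatives were DESeq2 1.42.0, RLE scaling, no scaling, no filter, at least 10 counts in every clone, only the groups compared, limma 3.58.1 on log2(TPM + 1) or log2(TPM + 0.1), and each clone left out. Gene positions came from GENCODE and promoters from RefSeq (GRCm38.p6), with Python 3.11.15. Intervals are the estimate ± 1.96 SE.

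Replicate numbers follow accession order and pair no clones. The labels do not say which clones share a mouse, so p values measure the spread between these clones. The members and lists were chosen with earlier results of these data known. Named genes are the members, their neighbours and the 3 most alike genes, the targeted gene, Myc, Cdkn1a and Mdm2, and per list the 2 largest and 2 smallest log2 fold changes among genes called in all cKO against Fgfr3-WT. Some items that this rule takes are left out of the text.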

Additional observations from a re-analysis of the deposited data

Results flagged for a closer look

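Snhg5 in P4M clone 4 (139.1 CPM) stood far from the other 3 clones of its group, which lay between 44.1 and 55.5 CPM: the gap was 0.879 of the group's range, above Dixon's critical value of 0.829. Of 21 groups looked at (7 RNAs in 3 groups), 1 was flagged, and chance flags about 1 in 20.

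The difference from Fgfr3-WT was itself different in the 2 cKO groups for 4 RNAs, by the edgeR test of P4M against P28. The log2 fold change was 1.75 for Snhg5, 1.38 for Snhg1, 0.99 for Gas5 and -1.30 for Malat1. These groups differ in the age of the mice and with it in the time since the tamoxifen pulse. The labels also give them different passages.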

How the results depend on the processing

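The calls of Neat1 and Malat1 in both cKO groups against Fgfr3-WT, of Malat1 and Snhg5 in P4M against P28, of Gas5 in P28, and of Snhg1 and Snhg5 in P4M against Fgfr3-WT were kept in every alternative run. The count of members called was 3 without Fgfr3-WT clone 3 or 4, and otherwise 4 or 5, in all cKO against Fgfr3-WT. In P4M against P28 it ranged from 2 (without P28 clone 1 or 3, or P4M clone 1, 2 or 4) to 5. Over all genes, 1254 were called in P4M against P28, 3051 with only the groups compared, 2607 with DESeq2, and 480 (without P4M clone 1) to 2132 (without Fgfr3-WT clone 1) with 1 clone left out. Direction changed only for differences that were not called: Snhg1 in P28 (-0.041 to 0.15 with 1 clone left out, below 0 without Fgfr3-WT clone 2 or 3 or P28 clone 4 or 5), Snhg5 (0.16 and 0.16) and Dancr (0.086 and 0.094) in P28 with TPM plus 1 or 0.1, Pvt1 in P4M (-0.0031, without Fgfr3-WT clone 4, to 0.38), Gas5 in P4M (-0.27 to 0.076, without P4M clone 3), Dancr in P4M (-0.31 to 0.042, without P4M clone 2) and Dancr in P4M against P28 (-0.18 and -0.19 with TPM, -0.13, without P4M clone 4, to 0.22 with 1 clone left out); the cause was not tested. Pvt1 was called by DESeq2 in P28 against Fgfr3-WT (adjusted p = 0.0426) and in P4M against P28 (adjusted p = 0.0333). Snhg1 in all cKO against Fgfr3-WT lost its call in 8 of 14 fits with 1 clone left out (edgeR adjusted p up to 0.104), Fgfr3-WT clones 2 to 5, P28 clones 2, 4 and 5 and P4M clone 4. Gas5 in the same comparison lost it without a filter (edgeR adjusted p = 0.0569) and with TPM (limma adjusted p = 0.117 and 0.114), and in P4M against P28 without scaling factors (edgeR adjusted p = 0.0649) and with TPM (limma adjusted p = 0.0991 and 0.0948). Scaling by TPM moved the median of all genes by 0.22 in P28 and by 0.11 in P4M against Fgfr3-WT and by -0.13 in P4M against P28. Genes called higher and lower were 3336 and 3414 in P28 against Fgfr3-WT with counts and 5141 and 1938 with TPM plus 1, 4014 and 4453 against 5266 and 2918 in all cKO, and 580 and 674 against 376 and 1194 in P4M against P28, where no scaling factors gave 400 and 805. With TPM plus 1 the gene lists in all cKO against Fgfr3-WT also leaned higher, at 8 higher and 3 lower for other snoRNA hosts, 8 and 3 for paraspeckle proteins, 7 and 2 for speckle proteins and 11 and 0 for snoRNA particle proteins. No paired analysis was possible because the labels carry no replicate numbers shared between groups. Intervals and limits of depth cover counting and clone spread only; at about 5 CPM, Dancr rested on the fewest counts.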
